A study of Mus musculus with 6 samples.

Results

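The sialyltransferases that cap glycoproteins were described in mouse melanoma cells that had been fed Ac4ManNAz, and in untreated cells. The members were the rows of the transcript table that carry 10 gene names, St3gal1, St3gal2, St3gal3, St3gal4, St3gal6, St6gal1, St6galnac2, St6galnac4, St6galnac6 and St8sia4. They made up 10 of the 21780 gene names of the table, 11 of its 21801 gene identifiers and 50 of its 59192 transcripts.

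Sialyltransferases are enzymes of the Golgi that move sialic acid from the activated donor CMP-sialic acid onto the ends of glycan chains. The ST3GAL enzymes attach it to galactose in an α2,3 linkage, ST6GAL1 attaches it to galactose in an α2,6 linkage, the ST6GALNAC enzymes attach it to N-acetylgalactosamine in an α2,6 linkage, and ST8SIA4 lengthens existing sialic acids into polysialic acid. Which of these enzymes a cell makes sets much of the sialic acid pattern on its surface, which selectins and Siglec receptors read, and melanoma cells are known for dense surface sialylation.

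The cells were B16F10-OVA, a pigmented line from a mouse melanoma that expresses ovalbumin, a model antigen. Ac4ManNAz is a peracetylated N-acetylmannosamine with an azide group. Cells convert it into azido sialic acid, and the same sialyltransferases then carry that sugar onto glycans. 3 libraries came from cells given 50 µM Ac4ManNAz from day 0, and 3 came from untreated cells. RNA was taken on day 5 and cells were passaged on day 3. All 6 libraries were made from total RNA of the ovalbumin-expressing line, depleted of ribosomal RNA and strand-specific. No vehicle is named for the untreated cells, and the labels do not state whether replicate libraries are separate cultures. The p-values then cover only how far these 6 libraries scatter, and that scatter may be technical. The study compared the groups to see whether metabolic labelling disturbs the transcriptome.

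Values are FPKM, fragments scaled to transcript length and library size, which can be compared between genes because they are given per length. A gene's level is the sum over its listed transcripts, so it also depends on how fragments were assigned among transcripts of unlike length. Differences are Ac4ManNAz minus untreated on the log2(FPKM + 1) scale, which understates changes of low genes. They were tested with limma over every gene or transcript with a mean of at least 1 FPKM, with Benjamini-Hochberg adjustment over all of them. The libraries listed 13912 to 18974 genes above 0 and 9678 to 10042 genes at 1 FPKM or more. Pearson correlations between libraries were 0.959 to 0.974 within groups and 0.960 to 0.975 between groups, and these ranges overlapped almost wholly. All 9 melanocyte markers examined were at 1 FPKM or more, with a summed level of 7780 to 9465 FPKM in Ac4ManNAz libraries and 7969 to 9671 FPKM in untreated libraries. Of 7 leukocyte markers 2 reached a mean of 1 FPKM, Lyz2 at 2.82 FPKM and Cd68 at 1.33 FPKM. The 7 summed to 3.25 to 5.79 FPKM in Ac4ManNAz and 3.60 to 5.16 FPKM in untreated libraries, and Ptprc and Cd3e were near 0. Of 5 fibroblast markers only Col1a2 reached that mean, at 2.98 FPKM, and none of the 4 endothelial or 5 keratinocyte markers did.

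B16F10-OVA cells listed 8 of the 10 sialyltransferase genes at a mean of at least 1 FPKM. St3gal4 and St3gal6 were the most abundant, at 60.3 and 44.2 FPKM over the 6 libraries. St6galnac6 and St3gal1 followed at 32.0 and 21.9 FPKM. St6gal1, St6galnac4, St3gal3 and St3gal2 lay together between 5.82 and 7.45 FPKM, and St6galnac2 and St8sia4 were near 0. No member's gene level passed the test between the groups.

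Neighbours in that order did not always stand apart. The ranges over 6 libraries of St3gal4 and St3gal6 overlapped, although St3gal4 was the higher of the pair in 6 of 6 libraries. St6gal1 was above St6galnac4 in 4 of 6 libraries, St6galnac4 was above St3gal3 in 4 of 6, and St3gal3 was above St3gal2 in 2 of 6, so these 4 genes had no fixed order. The ranges of St3gal6 and St6galnac6, of St6galnac6 and St3gal1, and of St3gal1 and St6gal1 did not overlap.

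**Figure D1:**
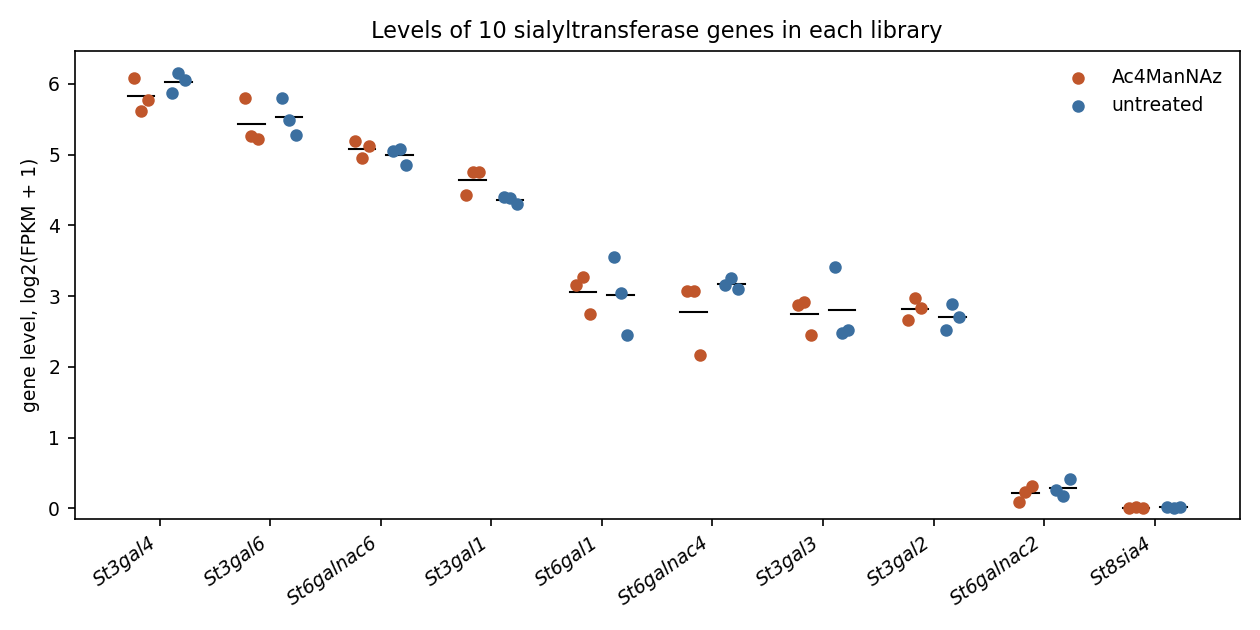
Gene level in log2(FPKM + 1) on the y axis for the 10 sialyltransferases on the x axis, with 1 point per library (Ac4ManNAz left, untreated right in each pair) and a bar at each group's mean (n = 3 each). The order of the genes is the same in both groups for the 4 most abundant, and the points of the groups are apart only for St3gal1 and St6galnac4.

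Of all 9925 genes tested, 0 (0%) had an adjusted p under 0.05 in limma, and 177 (1.78%) had an unadjusted p under 0.05. Of the 8 members tested, 0 met either criterion, and their adjusted p was 0.9998 throughout. The groups did not overlap, with Ac4ManNAz higher, for 208 genes (2.1%), of which 1 was a member, St3gal1. They did not overlap, with Ac4ManNAz lower, for 368 genes (3.71%), of which 1 was a member, St6galnac4. The 95% interval of the difference lay within 2-fold of FPKM + 1 either way for all 8 members, and for 9030 of all genes tested (91%). Members were thus bounded about as often as other genes. For low genes this bound allows more than 2-fold in FPKM itself, and the interval of St6galnac4 reached -0.998. The median difference of the 8 members was -0.01, against 0.00 over all genes tested, and the median absolute differences were 0.11 and 0.10.

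**Figure D2:**
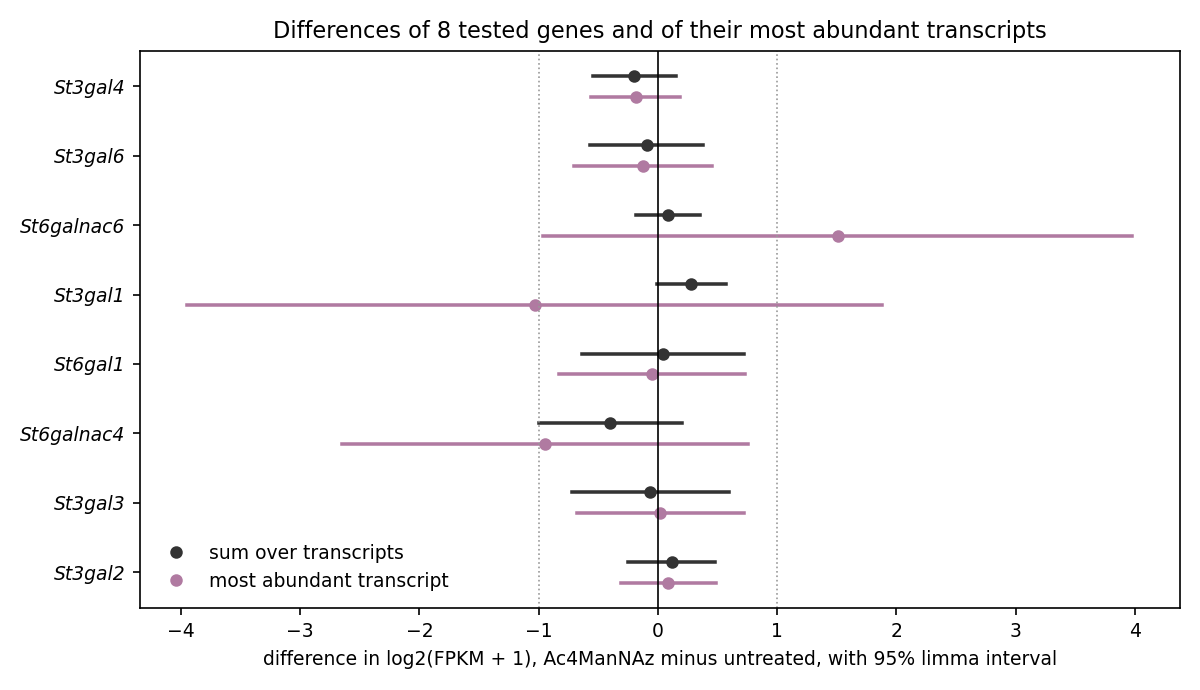
Difference in log2(FPKM + 1), Ac4ManNAz minus untreated, on the x axis for the 8 tested genes down the page, with 95% limma intervals (n = 3 each), for the sum over transcripts and for the gene's most abundant transcript alone. All 8 intervals of the sums stay between the dotted lines at 2-fold in FPKM + 1, while the intervals of the most abundant transcripts of St6galnac6, St3gal1 and St6galnac4 reach beyond them. The estimates for the most abundant transcripts of St3gal1, St6gal1 and St3gal3 have the opposite sign to their sums.

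ST3GAL1 sialylates the galactose of the core 1 O-glycan, the short chain on serine and threonine of mucin-type proteins. St3gal1 (ENSMUSG00000013846, chromosome 15, 66974724 to 67048679 as deposited) had 20.5, 26.0 and 25.9 FPKM in Ac4ManNAz libraries, against 20.1, 20.0 and 18.7 FPKM in untreated libraries. All 3 Ac4ManNAz values were above all 3 untreated values, the lowest of them by little. The means were 24.1 ± 3.13 FPKM in Ac4ManNAz and 19.6 ± 0.75 FPKM in untreated cells (SD, n = 3 each). The log2 difference was 0.28 (95% interval -0.01 to 0.57, adjusted p = 0.9998 in limma). It was the largest upward difference among the members.

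The 3 transcripts of St3gal1 carry the same coding sequence of 1011 bases and differ in their untranslated ends. St3gal1-201 led in 5 libraries and was nearly absent from the other. It had 0.023, 19.4 and 19.1 FPKM in Ac4ManNAz libraries, against 14.8, 14.2 and 14.0 FPKM in untreated libraries. St3gal1-203 had 14.2, 4.89 and 4.96 FPKM in Ac4ManNAz and 3.68, 4.44 and 3.27 FPKM in untreated libraries, and St3gal1-202 had 6.31, 1.69 and 1.84 FPKM in Ac4ManNAz and 1.63, 1.37 and 1.46 FPKM in untreated libraries. In Ac4ManNAz replicate 1 the share of St3gal1-201 was therefore 0.112% of the gene, against 70.9% to 74.7% in the other 5 libraries, and St3gal1-203 and St3gal1-202 took 69.1% and 30.8%. The summed level of the gene in that library was 20.5 FPKM, the lowest of the 3 Ac4ManNAz libraries. St3gal1-201, St3gal1-202 and St3gal1-203 have 4985, 5732 and 2337 bases, and FPKM are per length. How far the assignment of fragments among them set that sum was not tested. St3gal1-203 and St3gal1-202 were the only ones of the 23 tested member transcripts whose groups did not overlap, both with Ac4ManNAz higher. Of all 14846 transcripts tested, 395 (2.66%) did not overlap in that direction and 553 (3.72%) in the other. The log2 differences of St3gal1-203 and St3gal1-202 were 0.76 (95% interval -0.21 to 1.74) and 0.62 (95% interval -0.40 to 1.64). Without Ac4ManNAz replicate 1 they were 0.31 and 0.15.

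ST3GAL2 works on the same core 1 structure and also on gangliosides. St3gal2 (ENSMUSG00000031749, chromosome 8, 111646554 to 111699112) was steady and low, with 5.32, 6.82 and 6.11 FPKM in Ac4ManNAz libraries and 4.71, 6.41 and 5.52 FPKM in untreated libraries. The groups overlapped, and the log2 difference was 0.12 (95% interval -0.25 to 0.48, adjusted p = 0.9998 in limma). St3gal2-201, with a coding sequence of 1050 bases, made up 92.5% to 96.1% of the gene in Ac4ManNAz libraries and 93.5% to 99.0% in untreated libraries. The remainder was St3gal2-202, which shares the first 881 coding bases and ends differently. St3gal1 and St3gal2 together came to 25.8, 32.8 and 32.0 FPKM in Ac4ManNAz libraries and 24.8, 26.4 and 24.3 FPKM in untreated libraries, so the summed level of these core 1 enzymes overlapped between groups.

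ST3GAL4 and ST3GAL6 sialylate the galactose of N-acetyllactosamine, which ends N-glycans and extended O-glycans, and ST3GAL4 contributes to the sialyl Lewis X ligands of selectins. St3gal4 (ENSMUSG00000032038, chromosome 9, 34957872 to 35030564) had 67.0, 48.2 and 53.8 FPKM in Ac4ManNAz libraries, against 57.2, 70.5 and 65.3 FPKM in untreated libraries. Ac4ManNAz replicates 2 and 3 held the lowest values and an untreated library the highest, and the groups overlapped. The means were 56.3 ± 9.69 FPKM in Ac4ManNAz and 64.4 ± 6.69 FPKM in untreated cells (SD, n = 3 each), and the log2 difference of -0.20 (95% interval -0.55 to 0.15) had an adjusted p of 0.9998 in limma. It was -0.093 without Ac4ManNAz replicate 2 and -0.33 without Ac4ManNAz replicate 1.

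St3gal4 had 9 listed transcripts, of which 2 reached a mean of 1 FPKM, and these 2 kept their order in all 6 libraries. St3gal4-201, which encodes the full coding sequence of 999 bases, made up 77.8%, 79.2% and 82.2% of the gene in Ac4ManNAz libraries, against 77.0%, 78.0% and 82.7% in untreated libraries. St3gal4-203 took nearly all of the rest, at 17% to 21% in Ac4ManNAz and 15.8% to 21.8% in untreated libraries. The annotated coding sequence of St3gal4-203 is incomplete, with 482 bases, and it begins 102 bases in frame ahead of the start used by St3gal4-201. The usage difference of St3gal4-201, the log2 ratio of that transcript to the other transcripts of the gene, was 0.03 (95% interval -0.56 to 0.61), so each group's 3 shares spanned more than the groups differed by.

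The genes whose 6 values ran closest to those of St3gal4 were Serbp1, Tmem17 and Lbhd1, each with a mean absolute difference of 0.028 between the centred log2(FPKM + 1) values over 6 libraries, among 9924 genes. With 6 libraries and so many genes, close matches arise in number, and these are given as a description.

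St3gal6 (ENSMUSG00000022747, chromosome 16, 58288488 to 58344606) had 54.9, 37.4 and 36.4 FPKM in Ac4ManNAz libraries and 54.9, 44.0 and 37.7 FPKM in untreated libraries. The highest Ac4ManNAz value equalled the highest untreated value to 3 digits, and the groups overlapped. The log2 difference was -0.09 (95% interval -0.57 to 0.38, adjusted p = 0.9998 in limma). By the deposited coordinates the gene overlaps Dcbld2 over 1603 bases, and whether the authors' quantification used strand is not given in the sources used here, so reads in the overlap may belong to either gene. Dcbld2 had a mean of 17.3 FPKM.

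St3gal6-201, St3gal6-202 and St3gal6-207 share the coding sequence of 987 bases, and together they made up 81.7% to 87.6% of the gene in Ac4ManNAz libraries and 84.7% to 88.0% in untreated libraries. St3gal6-201 alone held 69.2%, 61.3% and 69.8% in Ac4ManNAz libraries and 69.5%, 67.3% and 67.9% in untreated libraries. The other 3 transcripts at a mean of at least 1 FPKM, St3gal6-203, St3gal6-209 and St3gal6-213, have annotated coding parts of 78, 15 and 152 bases and took from 1.5% to 5.19% each. No tested St3gal6 transcript was near absent from a library.

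ST3GAL3 also sialylates N-acetyllactosamine and in addition the chains that carry sialyl Lewis a. St3gal3 (ENSMUSG00000028538, chromosome 4, 117789351 to 117992111) had 6.31, 6.51 and 4.45 FPKM in Ac4ManNAz libraries, against 9.67, 4.55 and 4.75 FPKM in untreated libraries. Untreated replicate 1 was the highest and the other 2 untreated libraries were among the lowest, so the groups overlapped. The log2 difference was -0.06 (95% interval -0.72 to 0.60, adjusted p = 0.9998 in limma).

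St3gal3-201 and St3gal3-202 differ by 48 coding bases, the length of 16 codons, that St3gal3-202 lacks. These bases form 1 exon of St3gal3-201, and the stretch is shown because it is where the 2 proteins part. The sequence is from the GENCODE M21 transcript set of GRCm38 on the coding strand, coding bases 98 to 181 of St3gal3-201, and the capitals mark the bases that St3gal3-202 lacks.
St3gal3-201: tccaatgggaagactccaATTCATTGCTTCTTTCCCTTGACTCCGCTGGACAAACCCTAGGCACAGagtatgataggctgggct
The form with these codons, St3gal3-201 with St3gal3-203, made up 93.0%, 69.3% and 68.7% of the gene in Ac4ManNAz libraries and 65.3%, 82.1% and 75.9% in untreated libraries. The form without them made up 1.65%, 20.9% and 20.2% in Ac4ManNAz libraries and 21.1%, 10.5% and 18.2% in untreated libraries. The mean share of the form without them was 14.3% in Ac4ManNAz and 16.6% in untreated libraries, a smaller difference than the spread within either group. St3gal3-202 was itself under a mean of 1 FPKM and was not tested.

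ST6GAL1 places α2,6-linked sialic acid on N-glycans and makes the ligands of CD22. St6gal1 (ENSMUSG00000022885, chromosome 16, 23043490 to 23179100) had 7.91, 8.67 and 5.73 FPKM in Ac4ManNAz libraries, against 10.7, 7.25 and 4.47 FPKM in untreated libraries. The untreated libraries held both the highest and the lowest value. The means were 7.44 ± 1.53 FPKM in Ac4ManNAz and 7.47 ± 3.11 FPKM in untreated cells (SD, n = 3 each), with a log2 difference of 0.05 (95% interval -0.63 to 0.73, adjusted p = 0.9998 in limma).

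Of its 4 listed transcripts, 2 carried nearly all of St6gal1, and both have the coding sequence of 1209 bases. St6gal1-201 had 5.95, 5.26 and 3.27 FPKM in Ac4ManNAz and 7.70, 4.26 and 3.50 FPKM in untreated libraries, and St6gal1-205 had 1.96, 3.33 and 2.44 FPKM in Ac4ManNAz and 2.97, 2.98 and 0.917 FPKM in untreated libraries. Transcripts with that coding sequence summed to between 99.17% and 100% of the gene in each library.

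ST6GALNAC2 and ST6GALNAC4 add a sialic acid to the innermost N-acetylgalactosamine of O-glycans, ST6GALNAC4 to chains that already carry one. St6galnac4 (ENSMUSG00000079442, chromosome 2, 32477107 to 32489710) had 7.41, 7.44 and 3.51 FPKM in Ac4ManNAz libraries, against 7.95, 8.56 and 7.55 FPKM in untreated libraries. All 3 Ac4ManNAz values were below all 3 untreated values, 2 of them by little and Ac4ManNAz replicate 3 by more. The means were 6.12 ± 2.26 FPKM in Ac4ManNAz and 8.02 ± 0.51 FPKM in untreated cells (SD, n = 3 each). The log2 difference was -0.40 (95% interval -0.998 to 0.203, adjusted p = 0.9998 in limma), and it was -0.10 without Ac4ManNAz replicate 3.

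Both transcripts of St6galnac4 carry the coding sequence of 906 bases, and they differ in their untranslated ends. St6galnac4-204 had 4.84, 4.34 and 0.012 FPKM in Ac4ManNAz libraries, against 4.83, 5.77 and 4.70 FPKM in untreated libraries. St6galnac4-201 had 2.57, 3.10 and 3.49 FPKM in Ac4ManNAz and 3.11, 2.80 and 2.85 FPKM in untreated libraries. In Ac4ManNAz replicate 3, the library with the low gene level, St6galnac4-204 held 0.33% of the gene, against 58.3% to 67.3% in the other 5. St6galnac4-201 was at its highest there, and its log2 difference between groups was 0.04 (95% interval -0.35 to 0.43).

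St6galnac2 (ENSMUSG00000057286, chromosome 11, 116566129 to 116585694) had 0.06, 0.17 and 0.24 FPKM in Ac4ManNAz libraries and 0.20, 0.13 and 0.33 FPKM in untreated libraries. A second identifier of the same name, ENSMUSG00000110170, lies inside it by the deposited coordinates and was listed at 0 in all 6 libraries. St8sia4 (ENSMUSG00000040710, chromosome 1, 95515407 to 95595296), an enzyme that builds polysialic acid on the neural cell adhesion molecule, was listed at 0, 0.010 and 0 FPKM in Ac4ManNAz libraries and 0.008, 0 and 0.015 FPKM in untreated libraries. Both were under the 1 FPKM limit and were not tested. In bulk RNA, fewer cells that express a gene and less RNA per cell cannot be told apart.

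Mouse ST6GALNAC6 is known for adding α2,6-linked sialic acid to the N-acetylgalactosamine of gangliosides, and the human enzyme also makes disialyl Lewis a. St6galnac6 (ENSMUSG00000026811, chromosome 2, 32489721 to 32510818) starts 10 bases beyond the deposited end of St6galnac4. Its level was the steadiest of the members, at 35.4, 29.9 and 33.7 FPKM in Ac4ManNAz libraries, against 32.1, 32.9 and 28.0 FPKM in untreated libraries. Its coefficient of variation over the 6 libraries was 8.36%, against a median of 15.6% over all genes tested. The groups overlapped, and the log2 difference was 0.09 (95% interval -0.18 to 0.35, adjusted p = 0.9998 in limma).

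Of the 11 listed transcripts of St6galnac6, St6galnac6-201 to St6galnac6-205 differ in their first exons, which set where translation is annotated to begin. St6galnac6-201 and St6galnac6-203 share a coding sequence of 999 bases, St6galnac6-202 has 1005 bases with another first coding exon, and St6galnac6-204 and St6galnac6-205 have 897 bases from a later start in the same frame. The first 36 coding bases of each form are shown because the forms differ there, from the GENCODE M21 transcripts of GRCm38 on the coding strand. In St6galnac6-201 and St6galnac6-202 the capitals mark the bases ahead of the stretch that both share, and in St6galnac6-204 they mark its start codon.
St6galnac6-201: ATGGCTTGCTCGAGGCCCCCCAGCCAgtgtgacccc
St6galnac6-202: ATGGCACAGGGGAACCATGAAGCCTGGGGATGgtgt
St6galnac6-204: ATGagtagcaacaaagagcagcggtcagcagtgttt
The early start adds 102 coding bases, or 34 codons, to St6galnac6-201 and 108 bases, or 36 codons, to St6galnac6-202, ahead of the start of St6galnac6-204, and 76 of those bases are common to both.

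**Figure D3:**
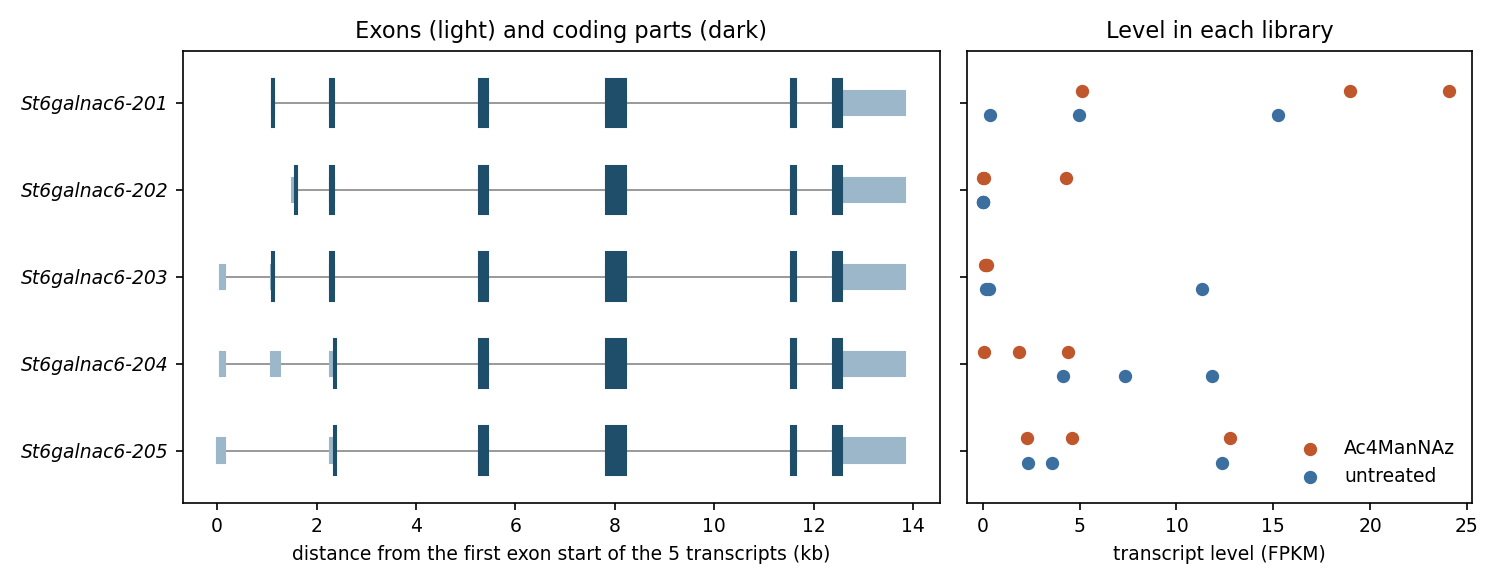
Left, exons (light) and coding parts (dark) of 5 St6galnac6 transcripts, to scale, by distance in kb from the first exon start on the x axis. Right, the level of each in FPKM, with 1 point per library (Ac4ManNAz above, untreated below). The transcripts share their last 5 exons to within 2 bases, and St6galnac6-201 spreads from 0.363 to 24.1 FPKM.

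The level of the St6galnac6 forms varied several-fold between libraries of 1 group while the gene sum did not. St6galnac6-201 had 24.1, 5.11 and 19.0 FPKM in Ac4ManNAz libraries, against 0.363, 4.99 and 15.3 FPKM in untreated libraries. St6galnac6-205 had 4.61, 12.7 and 2.28 FPKM in Ac4ManNAz and 2.35, 12.3 and 3.59 FPKM in untreated libraries. St6galnac6-201 was high where St6galnac6-205 was low in Ac4ManNAz replicates 1 and 3 and untreated replicate 3, and the reverse held in replicate 2 of both groups. St6galnac6-203 was at 0.216, 0.178 and 0.098 FPKM in Ac4ManNAz libraries and 11.3, 0.141 and 0.305 FPKM in untreated libraries, so a single untreated library held it. St6galnac6-202, under the 1 FPKM limit by its mean, had 4.31 FPKM in Ac4ManNAz replicate 3 and at most 0.042 FPKM in any other library.

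The most abundant St6galnac6 transcript was St6galnac6-201, St6galnac6-205 and St6galnac6-201 in Ac4ManNAz replicates 1 to 3, and St6galnac6-204, St6galnac6-205 and St6galnac6-201 in untreated replicates 1 to 3. The forms with the early start made up 68.6%, 17.8% and 69.5% of the gene in Ac4ManNAz libraries, against 36.4%, 15.7% and 55.7% in untreated libraries. The 897-base form with the late start, St6galnac6-204 with St6galnac6-205, made up 13.2%, 57.3% and 12.3% in Ac4ManNAz libraries, against 44.2%, 59.9% and 27.6% in untreated libraries. The groups overlapped for both shares, and in replicate 2 of each group the 897-base form held most of the gene. The other transcripts kept 18.2% to 24.8% in Ac4ManNAz and 16.7% to 24.4% in untreated libraries. Of these, St6galnac6-206 and St6galnac6-207 were tested, with means of 3.28 and 2.23 FPKM over the 6 libraries.

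St6galnac6-204 was the transcript of the set with the smallest p. It had 0.065, 4.38 and 1.87 FPKM in Ac4ManNAz libraries, against 11.8, 7.34 and 4.15 FPKM in untreated libraries. The groups overlapped narrowly in level, by 4.38 against 4.15 FPKM, but not in share of the gene, which was 0.182%, 14.7% and 5.56% in Ac4ManNAz libraries and 36.8%, 22.3% and 14.8% in untreated libraries. The log2 difference in level was -1.69 (95% interval -3.30 to -0.08, adjusted p = 0.9998 in limma), an interval that leaves out 0 before adjustment. The usage difference was -2.08 (95% interval -4.08 to -0.08, adjusted p = 0.9999 in limma). Neither passed. St6galnac6-201 and St6galnac6-205, which share most of its exons, had log2 differences in level of 1.51 (95% interval -0.96 to 3.98) and 0.10 (95% interval -1.65 to 1.85). With 1 library left out the difference of St6galnac6-204 ran from -2.23 to -1.06, nearest 0 without Ac4ManNAz replicate 1, and that of St6galnac6-201 ran from 0.56 to 2.34, nearest 0 with untreated replicate 1 left out.

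**Figure D4:**
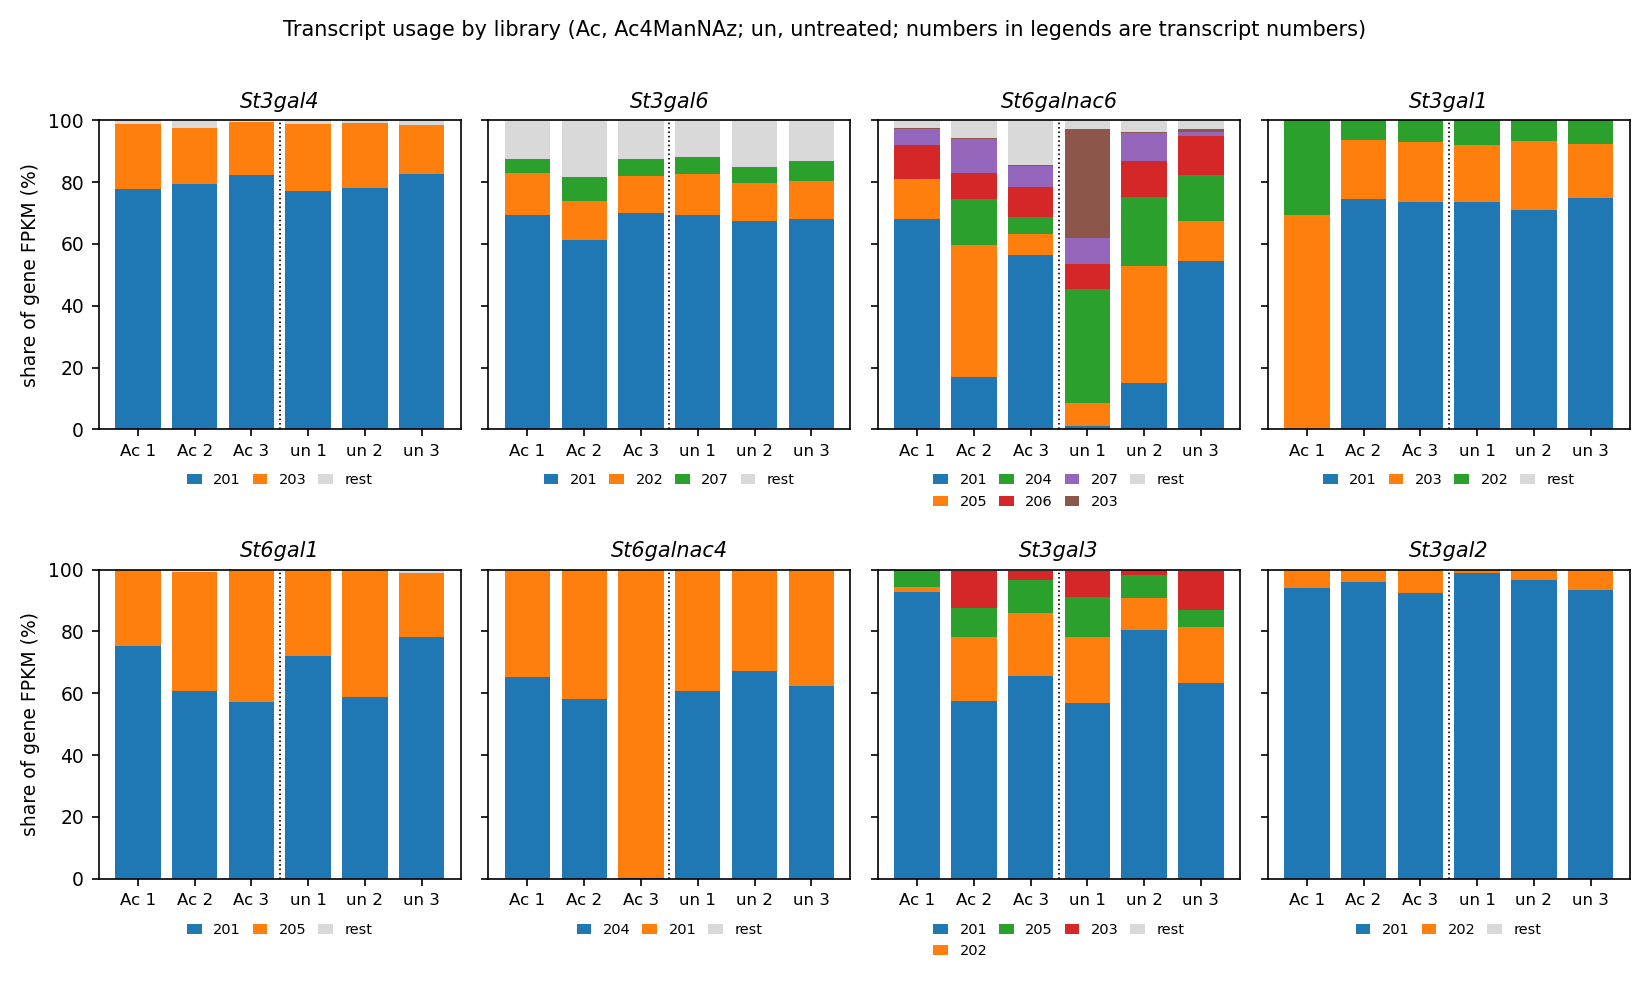
Share of each gene's summed FPKM (y axis, percent) held by its transcripts in the 6 libraries (x axis, Ac4ManNAz left of the dotted line, untreated right), for the 8 tested genes; "rest" is all other listed transcripts. St3gal4, St3gal6 and St3gal2 keep their makeup, St3gal1 and St6galnac4 lose their leading transcript in 1 Ac4ManNAz library each, and St6galnac6 differs from library to library in both groups.

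Across all member transcripts, 23 of 50 had a mean of at least 1 FPKM and were tested. The other 27 had means of at most 0.959 FPKM, 2 of them were listed at 0 in all 6 libraries, and the highest single value among them was the 4.31 FPKM of St6galnac6-202. Of the 14846 transcripts tested in all, 9 (0.0606%) had an adjusted p under 0.05 in limma, and 0 of the 23 members did. An unadjusted p under 0.05 was reached by 377 of all transcripts (2.54%) and by 1 member, St6galnac6-204. Groups that did not overlap were found with Ac4ManNAz higher for 395 transcripts (2.66%), of which 2 were members, and with Ac4ManNAz lower for 553 (3.72%), of which 0 were members.

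Transcript usage was tested for 9109 transcripts of all genes, and 12 (0.132%) had an adjusted p under 0.05 in limma, 0 of them among the 22 members tested. An unadjusted p under 0.05 was reached by 301 (3.3%) and by 1 member, again St6galnac6-204. Usage did not overlap between groups with Ac4ManNAz higher for 361 transcripts (3.96%), 0 of them members, and with Ac4ManNAz lower for 363 (3.99%), 1 of them a member. The median absolute usage difference was 0.23 over the 22 members, against 0.28 over all transcripts tested.

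Near-absence from a library was counted as a value under 0.1 of the transcript's median over the 6 libraries. It was met by 1243 of the 14846 transcripts (8.37%) and by 4 of the 23 members, each in 1 library. These were St3gal1-201 and St6galnac6-204 in Ac4ManNAz replicate 1, St6galnac4-204 in Ac4ManNAz replicate 3 and St6galnac6-201 in untreated replicate 1. A transcript that is low in most libraries has a low median and can escape this count. St6galnac6-203, with 11.3 FPKM in untreated replicate 1 and at most 0.305 FPKM in any other library, had a median of 0.197 FPKM and was not counted. It has 2 bases and 0 junctions of its own. By the annotation, 3 of these 4 have no base and no exon junction of their own, since every one of their bases and junctions also occurs in some other listed transcript of the gene, as is the case for 5 of the 23 tested members. Among tested transcripts of genes with several listed transcripts, such near-absence was seen in 240 of 1339 without a base or junction of their own (17.9%) and in 954 of 10835 with one (8.8%). The part of this in the member values was not tested. St6galnac6-204 has 129 bases and 1 junction of its own.

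The sialyltransferases were also summed by linkage, from FPKM and so per length. The 10 members came to 204.9, 171.0 and 169.7 FPKM in Ac4ManNAz libraries and 197.5, 194.3 and 172.5 FPKM in untreated libraries, and the groups overlapped. All listed genes came to 347126, 310003 and 310399 FPKM in Ac4ManNAz libraries and 340444, 341776 and 316925 FPKM in untreated libraries. Ac4ManNAz replicates 2 and 3 and untreated replicate 3 were the lowest in both sums. The 5 genes of the α2,3 linkage made up 75.2%, 73.0% and 74.6% of that sum in Ac4ManNAz libraries, against 74.2%, 74.9% and 76.6% in untreated libraries. The α2,6 linkage to N-acetylgalactosamine, almost all of it St6galnac6 and St6galnac4, held 20.9%, 21.9% and 22.0% in Ac4ManNAz libraries and 20.4%, 21.4% and 20.8% in untreated libraries. St6gal1 held 3.86%, 5.07% and 3.37% in Ac4ManNAz libraries and 5.41%, 3.73% and 2.59% in untreated libraries. The summed α2,3 genes exceeded St6gal1 by 18.7 ± 3.91 times in Ac4ManNAz and 21.1 ± 7.97 times in untreated cells (SD, n = 3 each). Every class overlapped between the groups, and the α2,3 genes made up about 3 in 4 of the transcripts by this measure in each library.

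Within the α2,3 class, the N-acetyllactosamine enzymes St3gal3, St3gal4 and St3gal6 came to 128.2, 92.1 and 94.6 FPKM in Ac4ManNAz libraries, against 121.8, 119.1 and 107.8 FPKM in untreated libraries. St3gal1 took 10.0%, 15.2% and 15.2% of the 10-gene sum in Ac4ManNAz libraries, against 10.2%, 10.3% and 10.9% in untreated libraries. In Ac4ManNAz replicates 2 and 3 the share of St3gal1 was higher and the N-acetyllactosamine enzymes lower than in the other 4 libraries. Ac4ManNAz replicate 1 had the lowest share of St3gal1 and the highest sum of the N-acetyllactosamine enzymes of all libraries.

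**Figure D5:**
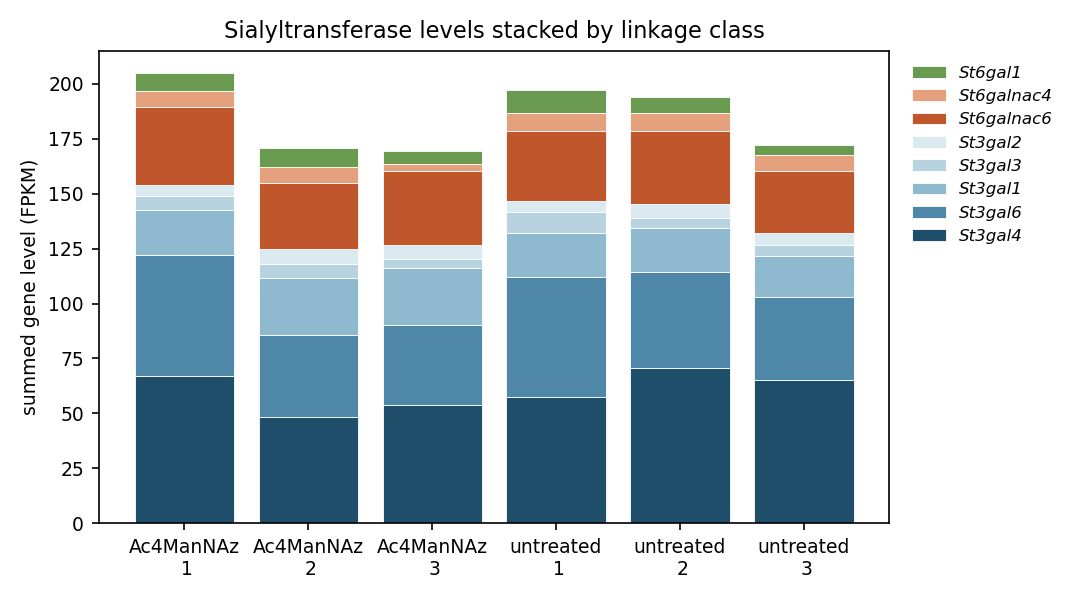
Summed gene level (y axis, FPKM) of the 8 tested sialyltransferases, stacked for each library (x axis, Ac4ManNAz left, untreated right), with blue for the α2,3 genes, orange for α2,6 to N-acetylgalactosamine and green for St6gal1. The blue part is 73.0% to 76.6% of the 10-gene sum in each library.

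The genes around the sialyltransferases in the pathway were described from lists chosen for their role. Of 10 other sialyltransferases, most of them ganglioside or polysialic acid enzymes, 2 were tested and 0 passed. St3gal5, which makes the ganglioside GM3, had 9.59 ± 2.27 FPKM in Ac4ManNAz and 9.37 ± 0.64 FPKM in untreated cells (SD, n = 3 each), and the 8 that were not tested stayed under 0.07 FPKM in each library. St8sia2, the second polysialic acid enzyme, was among these, so both genes for polysialic acid were near 0.

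Of 9 genes that make, activate or carry sialic acid, 8 were tested, 5 had a log2 difference above 0 and 3 below 0, and 0 passed in either direction; their median log2 difference was 0.09, against 0.00 over all genes tested. Gne, the enzyme that makes N-acetylmannosamine, the natural counterpart of Ac4ManNAz, had 5.72, 13.2 and 7.17 FPKM in Ac4ManNAz libraries and 6.57, 4.95 and 3.38 FPKM in untreated libraries. Its groups overlapped, and its log2 difference was 0.66 (95% interval -0.09 to 1.41, adjusted p = 0.9998 in limma). Nanp, the phosphatase that releases free sialic acid, was the only tested gene of the list whose groups did not overlap. That was so, with Ac4ManNAz higher, for 208 of all 9925 genes tested (2.1%). Nanp had 4.15, 3.61 and 3.19 FPKM in Ac4ManNAz libraries, against 2.95, 3.18 and 0 FPKM in untreated libraries. Its groups were apart only by 3.19 against 3.18 FPKM. Its log2 difference was 0.86 (95% interval -0.39 to 2.11, adjusted p = 0.9998 in limma), and untreated replicate 3 alone listed it at 0. Cmas, which makes the donor CMP-sialic acid, had 72.6 ± 3.27 FPKM in Ac4ManNAz and 72.8 ± 5.90 FPKM in untreated cells. Slc35a1, which carries that donor into the Golgi, had 22.2 ± 0.65 FPKM in Ac4ManNAz and 22.5 ± 1.25 FPKM in untreated cells (SD, n = 3 each). Both differed by less than the spread between libraries of 1 group.

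Of 7 genes that remove or modify sialic acid, 2 were tested and 0 passed. Neu1, the lysosomal sialidase, had 10.3 ± 4.37 FPKM in Ac4ManNAz and 8.93 ± 1.83 FPKM in untreated cells (SD, n = 3 each). Of 21 genes for building or modifying glycan chains, 13 were tested, 8 had a log2 difference above 0 and 5 below 0, and 0 passed. Their median log2 difference was 0.03. C1galt1, which makes the core 1 O-glycan that ST3GAL1 sialylates, had 17.6 ± 0.91 FPKM in Ac4ManNAz and 18.4 ± 2.80 FPKM in untreated cells, and its chaperone C1galt1c1 had 12.3 ± 1.16 FPKM in Ac4ManNAz and 12.8 ± 1.78 FPKM in untreated cells (SD, n = 3 each). B4galt1, which makes N-acetyllactosamine, had 2.17 ± 1.07 FPKM in Ac4ManNAz and 1.46 ± 0.25 FPKM in untreated cells. Of 11 selectins and Siglecs, the lectins that read sialic acid on other cells, 0 reached a mean of 1 FPKM, and the highest single value was 0.112 FPKM.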

How the data were processed

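Total RNA of 6 B16F10-OVA libraries was sequenced after ribosomal RNA depletion, strand-specific per the labels' protocols; titles give group and replicate. The authors deposited 1 table of FPKM per transcript and library. No source used here states how reads were aligned, quantified or assigned to strand, or which build and annotation were used, and coordinates are those of the deposited table. No fragment counts were used, so no count test or counting interval is given; if the commonest low product of FPKM and length is 1 fragment, libraries held 29900000 to 45500000 fragments.

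Transcripts were summed by gene identifier. A limma model (version 3.58.1, R 4.3.3; group as its single term, trended eBayes, two-sided, Benjamini-Hochberg at 0.05) was fitted on log2(FPKM + 1) for 9925 genes and 14846 transcripts whose mean was 1 FPKM or more. Usage was tested as log2((transcript + 1)/(rest of gene + 1)) for 9109 transcripts where both parts had that mean. Lengths, exons and coding sequences were matched by transcript identifier to GENCODE M21 (GRCm38); all 50 member transcripts matched. Tables and figures used Python 3.11.15, pandas 2.3.3, numpy 2.4.6 and matplotlib 3.10.9.

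The members and lists were chosen with earlier results of these data known. All members were named by gene. All tested member transcripts were named, most with their own values. From other lists, Gne, Cmas, Slc35a1, Neu1, St3gal5, B4galt1, C1galt1, C1galt1c1 and any gene that passed (0 did) were named. St3gal3-202, St6galnac6-202, St8sia2, Nanp, Dcbld2, Ptprc, Cd3e, Lyz2, Cd68 and Col1a2 were named after their values were seen. Alternatives were another pseudocount, other filters and scalings, other variance settings, sample weights, the most abundant transcript, a replicate block and each library left out.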

Additional observations from a re-analysis of the deposited data

How the results depend on the processing

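None of the 8 member genes, 23 member transcripts or 22 usage values passed under any alternative, and most kept their direction. The number of genes called was 0, against 2 with sample quality weights and 4 with the most abundant transcript; leaving out 1 library gave 0 to 1. The number of transcripts called was 9, against 2 at a mean of at least 5 FPKM, 15 without trend, 19 with sample quality weights and 1 with the replicate block, and 4 to 16 with 1 library left out. The number of usage calls was 12, against 19 with a pseudocount of 0.1, 7 with no filter, 3 at a mean of at least 5 FPKM and 0 with the replicate block, and 2 to 20 with 1 library left out. The cause of these changes was not tested. Deviations of same-numbered libraries correlated at 0.06, 0.02 and 0.26, and those of differently numbered libraries at -0.17 to 0.08. The main model held no replicate term, and whether same-numbered libraries share an effect was not tested. The replicate block changed no member call.

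Of 88 gene values under other settings 4 changed sign. With the most abundant transcript the log2 difference was -1.03 for St3gal1, 0.022 for St3gal3 and -0.049 for St6gal1, and with sample quality weights it was -0.17 for St6gal1. With those weights it was also -0.12 for St3gal3-201 and -0.84 for St6galnac6-205 in level, and -0.26 for St6galnac6-205 in usage. The weights gave an unadjusted p under 0.05 in limma to 2389 of 9925 genes and 3 of 8 members, St3gal1, St3gal4 and St6galnac4. The gene differences of these members were then 0.35, -0.33 and -0.92, against 0.28, -0.20 and -0.40, with adjusted p from 0.1281 to 0.1325 in limma. The share of the α2,3 genes differed by -0.96 percentage points between groups and by -5.49 with the most abundant transcript, and that of α2,6 to N-acetylgalactosamine by 0.77 and 5.67.

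With 1 library left out, the gene difference ran from -0.23 to 0.24 for St3gal3, -0.28 to 0.047 for St3gal6 and -0.24 to 0.31 for St6gal1, which changed sign, and, with sign kept, from 0.022 to 0.21 for St3gal2, -0.33 to -0.093 for St3gal4, -0.55 to -0.097 for St6galnac4, 0.018 to 0.15 for St6galnac6 and 0.22 to 0.39 for St3gal1. The transcript difference ran from -1.76 to 0.40 for St3gal1-201, -0.20 to 0.22 for St3gal3-201, -0.34 to 0.027 for St3gal6-201, -0.24 to 0.23 for St6gal1-201, -0.033 to 0.13 for St6galnac4-201 and -0.46 to 0.69 for St6galnac6-205. The usage difference ran from -2.80 to 0.11 for St3gal1-201, -0.24 to 0.84 for St3gal1-202, -0.076 to 1.40 for St3gal1-203, -0.25 to 0.71 for St3gal3-201, -0.078 to 0.17 for St3gal4-201, -0.18 to 0.080 for St3gal6-201 and -0.79 to 0.76 for St6galnac6-205. With 3 libraries a group and no counts, the intervals given with each gene set what could be seen.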
